A study of Mus musculus with 12 samples.

Results

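The genes described here are the 7 classic hormone genes of the anterior and intermediate pituitary: Gh, Prl, Pomc, Cga, Lhb, Fshb and Tshb. They were chosen by gene name because the peripubertal columns of the deposited value table held them at high levels, while the scanner files of the same samples did not. The 7 genes are measured by 8 probes, out of 30119 genes and 39429 distinct probes on the array, and Cga alone has 2 probes.

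Gene expression was profiled in ovaries of 12 adult C57BL/6J female mice aged 2 months, 4 per diet group. The peripubertal group received a vitamin D-deficient diet around puberty only, the early-life group received that diet in early life only, and the control group received a normal diet. The design states that the 4 females of a group are biological replicates. No allele, transgene or hormone treatment is named for any group, and vitamin D deficiency was by diet alone. Each 2-colour Agilent array carried 2 samples of 1 group, with odd replicates in Cy3 and even replicates in Cy5, so the 12 samples came from 6 arrays.

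In the pituitary, Gh is made by somatotropes, Prl by lactotropes, Pomc by corticotropes and melanotropes, Tshb by thyrotropes, and Lhb and Fshb by gonadotropes. Cga encodes the alpha subunit that is shared by luteinizing hormone, follicle-stimulating hormone and thyroid-stimulating hormone, whereas Lhb, Fshb and Tshb encode the beta subunits that give each hormone its specificity. These hormones reach the ovary through the blood: luteinizing and follicle-stimulating hormone act there through Lhcgr and Fshr, and prolactin acts through Prlr.

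The series holds 2 deposits of the same study, and they disagree for these samples. The scanner files give the signal of every spot, and 59.3 to 65.5% of gene features of a channel were well above background. The value table gives log2 values with each column's median at 0. Each of the 8 table columns named early-life or control held almost the same values as some scanner channel (Pearson r 0.99977 to 0.99982 across features, which are not independent replicates), but that channel bore the other of these 2 diet names. The 4 peripubertal columns matched no scanner channel, with a best r of 0.874 to 0.897. They resembled each other (r 0.977 to 0.988). Which deposit names the control and early-life samples correctly is not known, and results from the scanner files below use the scanner names. The scanner files put the peripubertal samples on 1 slide and the remaining samples on another, so an effect of that diet and an effect of the slide cannot be told apart.

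The label of the peripubertal columns of the table was checked against ovary markers. Of 12 markers of ovarian somatic cells, 10 lay lower in all 4 peripubertal columns than in all 8 other columns. Over all 30119 genes, taken by their brightest probe, 6.55% lay lower in this way. Hsd3b1, an enzyme of steroid synthesis, had -1.99, -2.07 and -3.85 in the peripubertal columns, with 1 value missing, against 7.91 to 9.78 in the others. Cyp11a1, which starts steroid synthesis from cholesterol, had -2.09 and -2.25 with 2 missing, against 7.69 to 9.02. Inha, the inhibin alpha subunit, had 1.47 to 2.41 against 8.08 to 9.44. Of 9 oocyte markers, 8 lay lower, among them Gdf9, an oocyte growth factor, at -3.00 to -0.87 against 5.09 to 6.58. The peripubertal columns have no scanner file with detection flags, so no fold is given for genes near the bottom of their range. The exceptions were Foxl2 and Cyp17a1 among the somatic markers and Figla among the oocyte markers. Of these, Cyp17a1 lay lower within each dye. The labelled tissue of these 4 columns is therefore not borne out by the markers, and they are called the peripubertal columns of the table, without another tissue name. In the scanner files, by contrast, all 12 somatic and all 9 oocyte markers were well above background in all 12 channels, the peripubertal ones included.

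Probes of Gh, Lhb and Pomc are shown first. The Gh probe had high values in the peripubertal columns of the table and no signal well above background in the scanner files. The Lhb and Pomc probes gave a signal in both deposits. Each is 60 bases, as the scanner files give it, with positions on build mm9. The Gh probe maps to chr11:106162492-106162735 on the minus strand and spans 244 bases of genome, more than its own length, so its alignment is split, as across an exon junction. The Lhb probe lies at chr7:52676685-52676744 and the Pomc probe at chr12:3960413-3960472, both on the plus strand.
Gh: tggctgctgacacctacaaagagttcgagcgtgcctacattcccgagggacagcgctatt
Lhb: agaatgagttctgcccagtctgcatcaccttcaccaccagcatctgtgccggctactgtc
Pomc: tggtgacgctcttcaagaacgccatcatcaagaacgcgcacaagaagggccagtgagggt

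Further probes lie at chr13:27156972-27157031 for Prl (plus strand), at chr2:106896400-106896459 for Fshb (minus strand) and at chr4:34854544-34854603 for Cga (plus strand). The second Cga probe starts 11.88 kb upstream of the first, at chr4:34842664-34842723, and is assigned by the file to another transcript of the gene. No gene annotation of build mm9 was used here, so exon and UTR are not stated for these probes.

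In the value table, all 7 genes lay higher in every one of the 4 peripubertal columns than in any of the 8 early-life and control columns. Across the array, 5.08% of the 30119 genes, taken by their brightest probe, lay higher in this way and 6.55% lay lower (5.02% and 6.36% of the 43020 gene features). The members were chosen from this contrast, so no test is given and nothing is read from the count. The median difference over the 7 genes was 8.73 on the log2 scale, against -0.05 over all genes. Among the 4 peripubertal columns, the level of Gh or Pomc was the highest of all features in 3: Gh in replicate 3, and Pomc in replicates 2 and 4.

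Gh, growth hormone, had table values of 10.03, 9.94, 10.24 and 10.20 in the peripubertal columns. It had -1.48, -4.01, -1.43 and -3.90 in the early-life columns and -1.54, -4.08, -1.79 and -4.04 in the control columns. The low values fall at 2 levels that follow the dye. For comparison, the lowest values of probes well above background were -1.78 to -1.32 in the Cy3 and -3.98 to -3.70 in the Cy5 columns outside the peripubertal group. Gh was not well above background in any scanner channel that matches these 8 columns, so the peripubertal columns were at least 3184-fold higher. This bound is taken within the Cy3 columns, where dim probes have values. It sets the 2 peripubertal ones against the mean, over the 4 others, of the higher of the probe's own value and the lowest value of probes well above background. All lower bounds that follow are made in this way.

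Prl, prolactin, stood at 10.07, 9.74, 9.27 and 9.60 in the peripubertal columns. In the early-life columns it had -2.24 and -2.05, and in the control columns -2.04 and -2.24, all in Cy3, with no value given in the Cy5 columns. The peripubertal columns were at least 2550.2-fold higher. Neither Gh nor Prl overlapped between groups.

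Like Lhb, Pomc, the precursor of adrenocorticotropin and melanocyte-stimulating hormone, was well above background in every scanner channel. It had 8.75, 10.14, 8.78 and 10.22 in the peripubertal columns, against 1.95, 0.27, 1.58 and 0.10 in the early-life columns and 1.31, -0.33, 0.99 and 0.05 in the control columns. The mean difference was 8.73, or 425-fold. In the peripubertal columns the Cy5 replicates were the higher ones, whereas in the other columns the Cy3 replicates were. The difference was therefore 7.31 within Cy3 and 10.16 within Cy5.

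Cga, the shared alpha subunit, had 9.97, 8.61, 9.70 and 9.31 in the peripubertal columns. Its early-life values were -1.96, -3.96 and -1.78, with 1 missing, and its control values -1.84, -4.17, -2.20 and -4.23, so the groups did not overlap and the bound was at least 2863-fold. The upstream Cga probe differed far less. It had -0.19, -2.10, -0.48 and -2.64 in the peripubertal columns. The early-life columns held -1.88 and -1.96 and the control columns -1.90 and -2.10, all in Cy3. Over both dyes together its groups overlapped. Within Cy3 the peripubertal values lay above all others, by 1.63 on average. No Cy5 column outside the peripubertal group holds a value for this probe.

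The beta subunits decide which receptor each glycoprotein hormone binds. Tshb had 6.03, 5.93, 5.61 and 5.27 in the peripubertal columns, against -1.86 and -2.20 in the early-life and -1.96 and -2.03 in the control columns, a bound of at least 177-fold. Fshb had 5.33, 5.74, 7.62 and 6.33, against -2.48 and -2.23 in the early-life and -2.11 and -2.28 in the control columns, a bound of at least 279-fold. For Tshb and Fshb no Cy5 column outside the peripubertal group holds a value. Neither gene overlapped between groups.

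Lhb had 5.27, 2.77, 6.28 and 5.12 in the peripubertal columns. It had -0.58, -2.11, -0.66 and -2.44 in the early-life columns and -0.39, -1.43, -0.24 and -2.34 in the control columns. The difference was 6.13, or 70.1-fold, and 6.24 within Cy3 and 6.03 within Cy5. Peripubertal replicate 2 lay 3.51 log2 units below replicate 3.

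**Figure D1:**
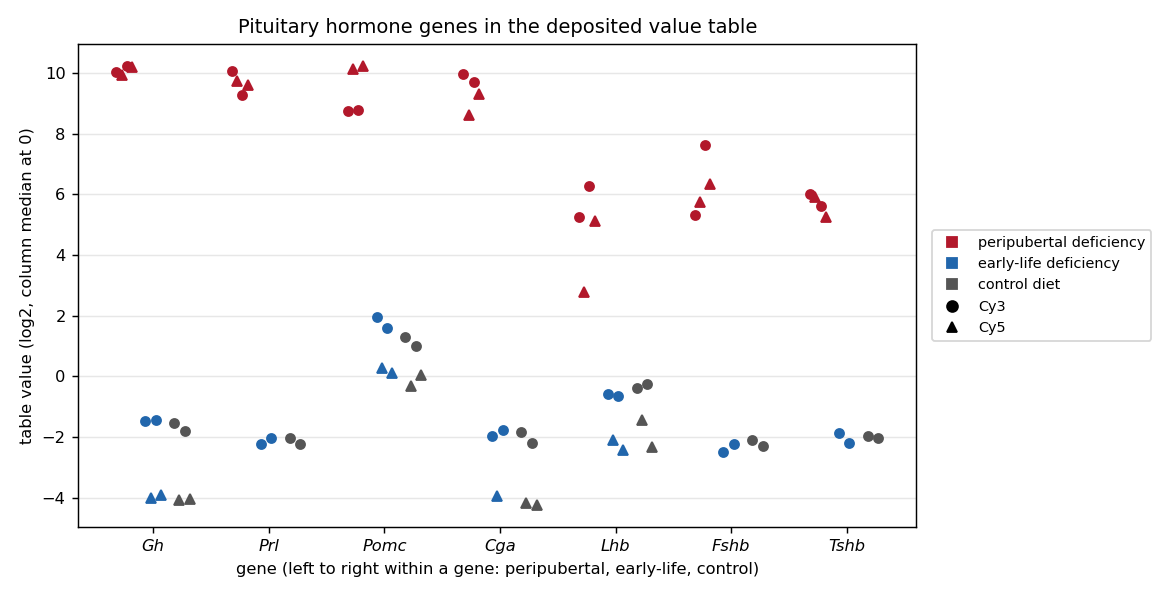
Values of the 7 genes in the 12 columns of the value table (log2, column median at 0), with the brighter Cga probe. Red points are peripubertal, blue early-life and grey control columns, circles Cy3 and triangles Cy5, and missing values are not drawn; every red point lies above every blue and grey point of its gene.

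The span of each gene over the 4 peripubertal columns is given as a description. The highest values of any feature in these columns were 10.22, 10.14, 10.24 and 10.22, and Gh lay at or just under them in every column; whether a ceiling limits its span was not tested. Gh spanned 0.30 log2 units, Tshb 0.77, Prl 0.80, Cga 1.35 and Pomc 1.47. The gonadotropin beta subunits had wider spans: Fshb spanned 2.30 units (4.91-fold between the lowest and the highest column) and Lhb 3.51 units (11.4-fold). Replicate 3 was the highest column for both Fshb and Lhb. The lowest was replicate 1 for Fshb and replicate 2 for Lhb. For Pomc the order followed the dye, since replicates 1 and 3 (Cy3) were low and replicates 2 and 4 (Cy5) high. For Cga the Cy3 columns were the higher ones. Whether the dye has a part in these orders was not tested, as each dye holds 2 columns.

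**Figure D2:**
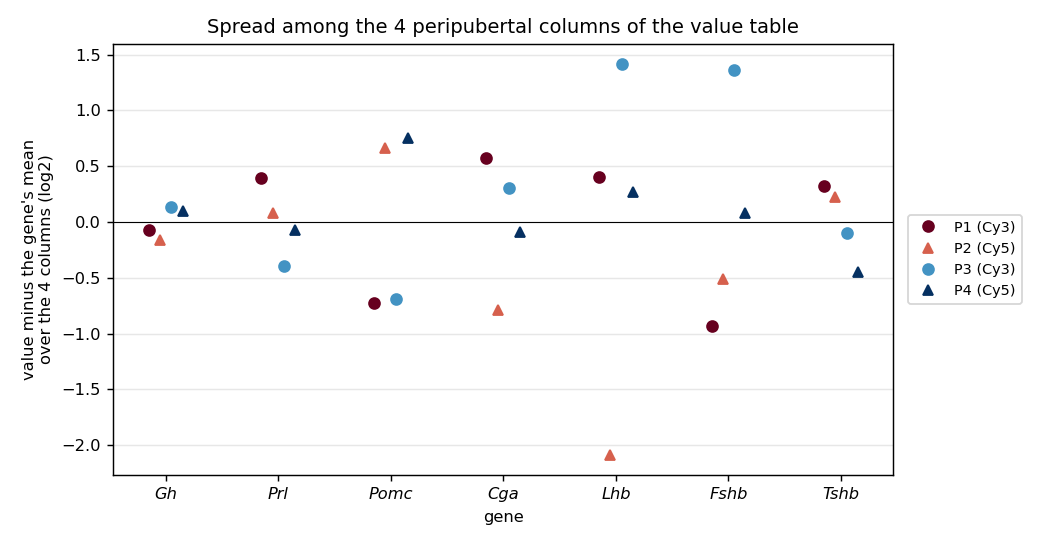
Deviation of each peripubertal column of the value table from the gene's mean over the 4 columns (log2), for the 7 genes. Gh points lie within 0.30 units of each other and Lhb points within 3.51, with replicate 2 lowest and replicate 3 highest for Lhb.

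In the scanner files, the probes of Gh, Prl, Cga, Fshb and Tshb were not well above background in any of the 12 channels, peripubertal channels included. Their signal was 1.17 to 3.82 times the local background over all channels and 1.30 to 2.87 times in the peripubertal channels. Normalized log2 values of these 6 probes lay between 6.05 and 6.70. For Gh they were 6.39, 6.40, 6.35 and 6.39 in peripubertal ovaries, 6.57, 6.60, 6.59 and 6.57 in early-life ovaries, and 6.68, 6.54, 6.67 and 6.54 in control ovaries. For Prl they were 6.43, 6.60, 6.44 and 6.70 in peripubertal ovaries, 6.26, 6.37, 6.25 and 6.54 in early-life ovaries, and 6.30, 6.21, 6.15 and 6.37 in control ovaries. No level or order is read from values at background. The same 5 genes are thus those with lower bounds in the table. Over the 7 genes, the median difference of peripubertal from other scanner channels was 0.05 on the log2 scale. Low scanner levels were part of the choice of members, so nothing is read from this median.

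**Figure D3:**
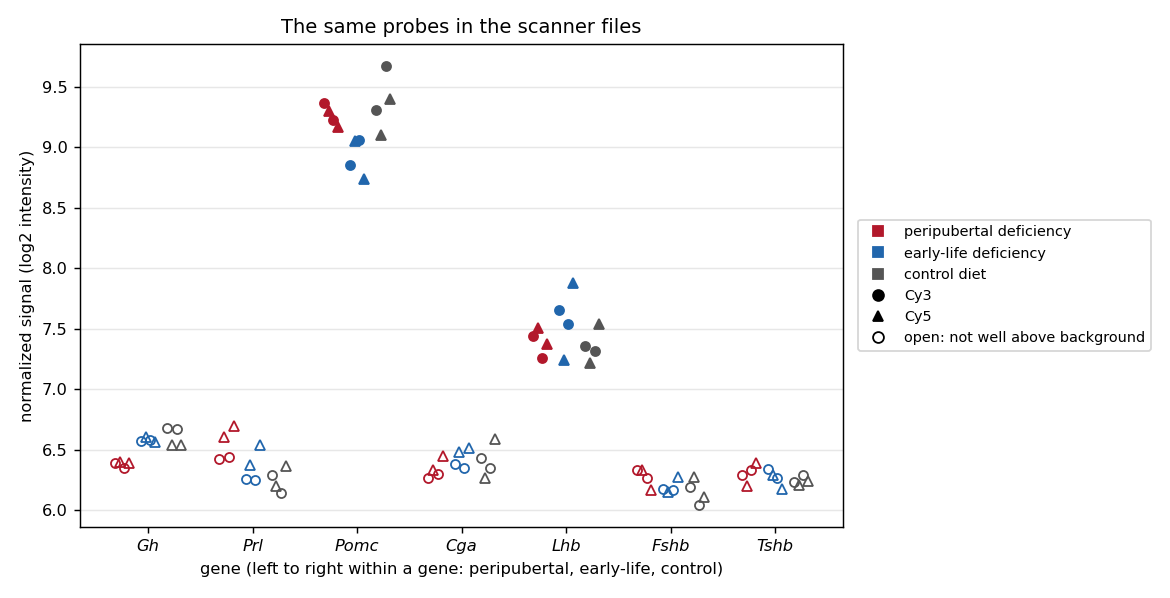
Normalized log2 signal of the same 7 probes in the 12 scanner channels, with peripubertal points left of early-life and control points. Filled points are well above background and open points are not; every Pomc and Lhb point is filled, and every point of the other genes is open.

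Pomc and Lhb were well above background in 12 of 12 scanner channels, at 17.9 to 29.2 and 4.34 to 8.17 times the local background. They are the members that passed the filter of at least 4 channels well above background and were tested with limma, by fitting the 3 groups together with dye as a covariate and array as a random block. The scanner levels of the peripubertal samples were known when the members were chosen, so these tests are not independent of that choice. In these bulk samples, fewer cells of a type and less RNA per cell cannot be told apart.

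Pomc in the scanner files was 9.37, 9.30, 9.22 and 9.17 in peripubertal ovaries, 8.86, 9.05, 9.06 and 8.73 in early-life ovaries, and 9.31, 9.10, 9.67 and 9.40 in control ovaries. Every peripubertal and every control value lay above every early-life value, while peripubertal and control values overlapped. The means were 9.26 ± 0.09, 8.93 ± 0.16 and 9.37 ± 0.24 in these groups (SD, n = 4 each). Peripubertal ovaries differed from early-life ovaries by 0.34 ± 0.13 log2 units (SE; 95% interval 0.04 to 0.64; limma adjusted p = 0.170) and from control ovaries by -0.11 ± 0.13 (interval -0.40 to 0.19; limma adjusted p = 0.806). Early-life ovaries differed from control ovaries by -0.44 ± 0.13 (interval -0.74 to -0.15; limma adjusted p = 0.241). None of the 3 differences passed the threshold of 0.05 over all genes. Groups were apart in the same direction for 14.3% of 18842 genes in peripubertal versus early-life ovaries and for 9.47% of 18717 genes in early-life versus control ovaries. The same comparison in the deposited table, which has the other names for these samples and its own processing, gave 0.47 (limma adjusted p = 0.175).

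Markers of tissue around the ovary are given for the same groups. Of 6 oviduct markers, Wfdc2 lay lower in peripubertal than in early-life ovaries, by 4.50 ± 1.00 log2 units (SE, limma adjusted p = 0.0474). In that comparison 0.504% of 18842 genes were called lower. These groups lie on different slides, so diet and slide cannot be told apart. The median difference of the oviduct list was -3.58, against 0.03 over all genes tested. The log2 of the summed signal of the 4 oviduct markers with a value in every sample was 12.65 to 13.06 in peripubertal, 13.44 to 16.23 in early-life and 13.11 to 14.54 in control ovaries. For the 5 adipocyte markers it was 12.02 to 15.06, 14.24 to 17.10 and 11.50 to 13.39 in these groups. No other oviduct marker and no tested adipocyte marker was called in any comparison. No oviduct marker was below background in every channel. The part of these tissues in the Pomc values was not tested.

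Lhb in the scanner files was 7.44, 7.50, 7.26 and 7.37 in peripubertal ovaries, 7.66, 7.24, 7.54 and 7.88 in early-life ovaries, and 7.36, 7.22, 7.31 and 7.54 in control ovaries, and all groups overlapped. The differences were 0.04 ± 0.16 for peripubertal versus control (limma adjusted p = 0.960), -0.19 ± 0.16 for peripubertal versus early life (0.508) and 0.22 ± 0.16 for early life versus control (0.529). The intervals ran from -0.32 to 0.39, from -0.54 to 0.17 and from -0.13 to 0.57. A p above the threshold does not show that the groups were alike.

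**Figure D4:**
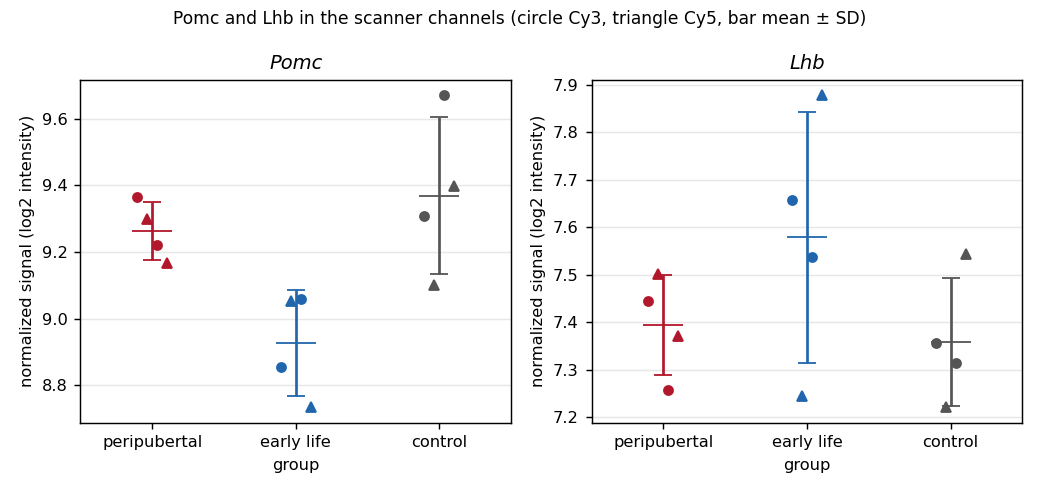
Normalized log2 signal of Pomc and Lhb in the scanner channels by group (points, circles Cy3 and triangles Cy5; horizontal marks mean, error bars SD, n = 4). Early-life Pomc points lie below all other points, and Lhb points of the 3 groups overlap.

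Limma called 42 of 18710 genes (0.224%) in peripubertal versus control ovaries, 16 higher (0.0855%) and 26 lower (0.139%). It called 468 (2.48%) in peripubertal versus early-life ovaries, 373 higher (1.98%) and 95 lower (0.504%), and 7 (0.0374%) in early-life versus control ovaries, 2 higher (0.0107%) and 5 lower (0.0267%). With the replicate block, early life versus control gave 0 calls by limma, with 3034 genes at an unadjusted p under 0.05. Limma called none of the tested members after adjustment in any of these comparisons. Without adjustment, 2123, 4473 and 2600 genes had a p under 0.05, in the order of the comparisons above. Pomc was among these genes in peripubertal versus early life (limma unadjusted p = 0.030) and in early life versus control (limma unadjusted p = 0.0077). Peripubertal and control channels were apart for 6.49% of genes upward and 5.53% downward, peripubertal and early-life channels downward for 7.03%, and early-life and control channels upward for 4.82%.

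The hormones are secreted from dense-core granules, and genes of that route were higher in the peripubertal columns of the table too. Of 11 genes of secretory granules and prohormone processing, 9 lay higher in all 4 columns and none lower. Over all genes, 5.08% lay higher and 6.55% lower. The list's median difference was 7.75, against -0.05 over all genes. The granule proteins Chgb and Chga differed by 9.87 and 8.87, and Pcsk2, a convertase that helps to process POMC into melanocyte-stimulating hormone, by 9.19. Scg2, a further granule protein, was not well above background in any scanner channel and was at least 1057-fold higher in the peripubertal columns. Cpe and Pam overlapped over both dyes together, though Pam lay higher within each dye. Cpe, which trims basic residues from cleaved prohormones, stood at 8.28 to 9.16 in peripubertal columns and 7.43 to 9.21 in the others. In the scanner files 8 of the 11 genes were well above background in every channel, and none was called in any comparison. In any single channel, 59.3 to 65.5% of gene features were well above background.

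Of 13 pituitary transcription factors, 7 lay higher, 1 lower and 5 overlapped in the table, against 5.08% higher and 6.55% lower over all genes. Their probes were not well above background in all 8 scanner channels that match the other columns, so lower bounds are given. Pitx1, which acts early in pituitary development, was at least 216-fold higher, Lhx3 at least 71.3-fold and Six6 at least 58.2-fold. Pou1f1, which activates Gh, Prl and Tshb, was at least 29.1-fold higher, and Tbx19, the activator of Pomc, at least 10.5-fold. Lhx3 was well above background in 5 of those 8 channels and Pou1f1 in 2. Nr5a1, which is used in gonadotropes as well as in ovarian steroid-making cells, was the one that lay lower, by -2.77. Egr1, an activator of Lhb, stood at 7.33, 4.28, 3.73 and 4.82 in the peripubertal columns and did not follow the order of Lhb there.

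Of 8 receptors for releasing and inhibiting hormones, 3 lay higher in the table, against 5.08% of all genes, and 5 overlapped over both dyes together. None of these 3 was well above background in any scanner channel. Gnrhr, the gonadotropin-releasing hormone receptor, was at least 56.5-fold higher, Ghrhr, the growth hormone-releasing hormone receptor, at least 27.2-fold, and Drd2, which inhibits prolactin release, at least 10.5-fold. Of the overlapping genes, Crhr1, Sstr5 and Trhr lay higher within each dye. Crhr1 differed by 1.80 and Sstr5 by 1.06, and Trhr was at least 2.65-fold higher. Ghsr overlapped within Cy3, and Sstr2 lay higher within Cy3 but has no Cy5 value. Sstr5, a somatostatin receptor, was the only gene of this list called in the scanner files. It had 13.36, 13.24, 13.05 and 13.05 in peripubertal ovaries and 12.57, 12.57, 12.64 and 12.81 in early-life ovaries. Control ovaries had 12.83, 12.89, 12.75 and 12.84. The peripubertal mean was above the early-life mean by 0.53 ± 0.10 log2 units (SE, limma adjusted p = 0.0365). In that comparison 1.98% of 18842 genes were called higher. Peripubertal samples lie on their own slide, so diet and slide cannot be told apart. Between peripubertal and early-life ovaries Wfdc2 was called lower and the summed oviduct signal was apart, as given above. The part of oviduct tissue in the Sstr5 values was not tested.

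Of 10 receptors on which the hormones act, 4 lay lower in the peripubertal columns of the table, 1 higher and 5 overlapped over both dyes together. Of the overlapping ones, Mc5r lay higher within each dye. Over all genes, 6.55% lay lower and 5.08% higher. Lhcgr had -1.99 and -2.25 with 2 values missing, against 2.90 to 4.29 in the others. Fshr had -2.17 and -2.39 with 2 missing, against 2.26 to 4.08. Prlr differed by -2.74 and Ghr, the growth hormone receptor, by -2.48. Mc3r, a melanocortin receptor, was the one that lay higher over both dyes together, by 3.71. The 7 receptors that could be tested in the scanner files were not called in any comparison. For Prlr, outlier spots left 1 peripubertal, 2 early-life and 3 control values.

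None of the listed relatives found on the array differed by as much as the hormone genes. Of 22 listed relatives of prolactin, which in rodents are made mainly by the placenta, all 20 found on the array overlapped between the columns. So did 26615 of all 30119 genes. Of these 20 relatives, 13 were never well above background in the scanner files. Gpha2 and Gphb5, the subunits of thyrostimulin, overlapped as well. Overlap was scored over both dyes together, and dim values differ between the dyes. Within each dye, Gpha2 lay lower in the peripubertal columns. It had 0.34 and 0.49 against 2.04 to 2.92 in Cy3, and -1.06 and -0.60 against 0.08 to 1.22 in Cy5. Prl3d1 lay higher within each dye, with a mean difference of 0.94. Markers of other tissues that could accompany these genes were mixed. Oxt and Avp, of hypothalamic neurons that end in the posterior lobe, lay higher, Oxt by 7.26 and Avp at least 12-fold, since Avp was not well above background in any scanner channel. Of 11 brain markers 4 lay higher, against 5.08% of all genes, and 7 overlapped. Syt1 was at least 61.4-fold higher and Slc17a6 at least 13.4-fold, while Snap25 differed by 2.11 and Aqp4 by 1.95. Gfap and Neurod6 were among the overlapping ones, and neither was well above background in any matching scanner channel. Gfap lay higher within each dye. The part of these cells in the values of the hormone genes was not tested.

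**Figure D5:**
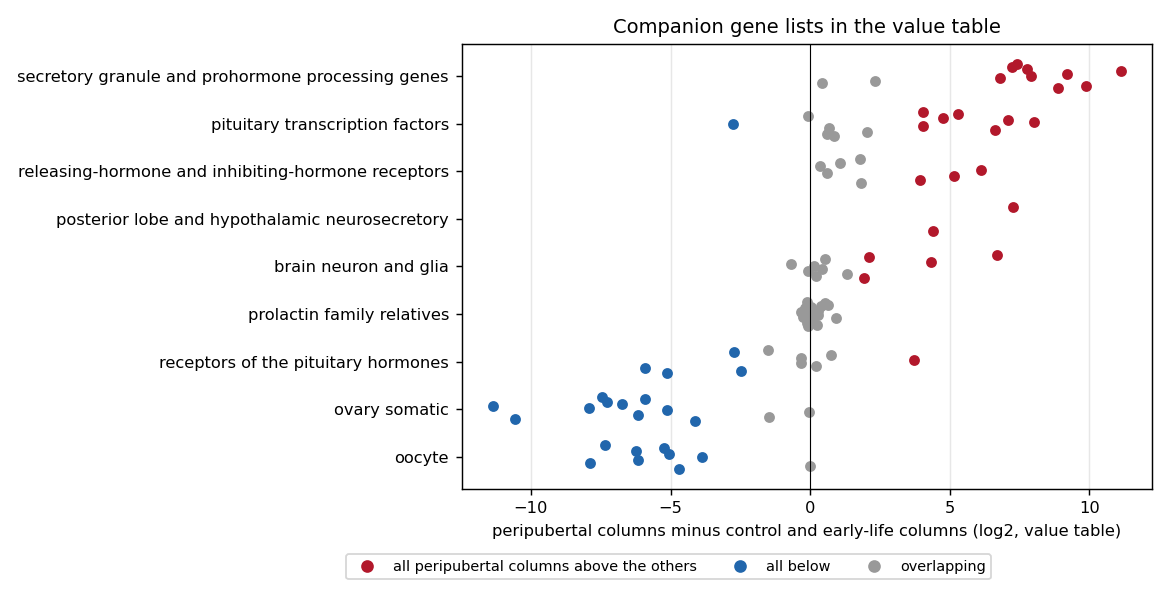
Difference of the peripubertal columns from the early-life and control columns of the value table (log2) for each gene of 9 lists, in rows. Red points lie above the others in all columns, blue points below and grey points overlap. Where a probe is at background in either set of columns, the size of the difference is not measured. Of 11 granule genes 9 are red, against 5.08% of all genes. Blue are 10 of 12 somatic and 8 of 9 oocyte markers of the ovary, against 6.55% of all genes.

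The genes whose 12 table values lay closest to those of each member were found among 20503 candidates, by the root mean square distance after each gene's own mean was subtracted. Scg2 and Chgb were nearest to Gh (0.88 and 1.54 log2 units over 12 columns), to Prl (0.93 and 1.32 over 8 columns) and to Cga (0.69 and 1.28 over 11 columns). Igsf1, a membrane glycoprotein of pituitary cells, was nearest to Fshb (0.70, followed by Pcsk2 at 0.79) and to Tshb (0.33, followed by Tmem59l at 0.38), over 8 columns each. Pcsk2 (0.42) and Tmem59l (0.64) were nearest to Pomc. For Lhb the nearest were Serpina11 and Olfr576 (0.32 and 0.43), neither of which is on the granule list. Likeness over so few columns says nothing of function.

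Promoters of the 6 members in the promoter table were searched on both strands for TATNCAT, a short form of the POU1F1 site, and for AAGGNCA, a form of the NR5A1 site, over the 250 bases before the gene start. They come from RefSeq on build GRCm38.p6, which differs from the build of the probes. Prl held 2 matches to TATNCAT, starting 148 and 47 bases before the gene start, Lhb held 2 matches to AAGGNCA at 129 and 59 bases, Cga held 1 at 215 bases and Pomc held 1 at 63 bases. No match to either was in the windows of Fshb and Tshb. Over 32851 promoters of this length, 7.92% held TATNCAT and 17.5% held AAGGNCA. The windows are chr13:27057320-27057569 for Prl, chr7:45420696-45420945 for Lhb and chr4:34893529-34893778 for Cga, all on the plus strand, and capitals mark the matches, which do not overlap. They are shown because these genes differed together in the table; a match is only a run of letters.
Prl: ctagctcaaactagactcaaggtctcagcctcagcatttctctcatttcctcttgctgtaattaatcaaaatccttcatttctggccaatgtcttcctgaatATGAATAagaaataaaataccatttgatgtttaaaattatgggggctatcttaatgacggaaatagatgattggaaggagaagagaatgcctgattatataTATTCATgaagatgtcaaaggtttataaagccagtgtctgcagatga
Lhb: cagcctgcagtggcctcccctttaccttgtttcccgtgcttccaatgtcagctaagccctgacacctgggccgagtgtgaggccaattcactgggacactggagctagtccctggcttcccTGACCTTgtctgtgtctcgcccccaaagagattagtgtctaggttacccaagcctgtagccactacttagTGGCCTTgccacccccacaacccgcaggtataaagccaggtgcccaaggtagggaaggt
Cga: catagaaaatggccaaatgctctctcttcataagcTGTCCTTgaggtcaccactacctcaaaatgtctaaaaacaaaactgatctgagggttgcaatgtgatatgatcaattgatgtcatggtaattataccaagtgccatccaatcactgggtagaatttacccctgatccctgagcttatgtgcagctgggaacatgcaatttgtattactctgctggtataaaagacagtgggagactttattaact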

How the data were processed

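The members and gene lists were chosen with earlier results of these data known. The deposited scanner files give mean and background signal intensity per spot for both channels, read with Agilent Feature Extraction 11.0.1.1 per the file headers. The value table, also deposited, is on a log2 scale, and every column was found to have its median at 0. Its making is not given in the sources used here.

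With R 4.3.3 and limma 3.58.1 (with data.table, version 1.17.8, and statmod, version 1.5.0), normexp background correction (offset 50), loess and Aquantile normalization gave log2 values per channel. Outlier spots (2.16 to 4.28% of a channel) were left out, and a probe had to be well above background in 4 or more of the 12 samples, the brightest standing for its gene: 24567 probes and 18986 genes. Limma's moderated test used group means, dye as a covariate and array as a random block (correlation 0.284), with Benjamini-Hochberg adjustment at 0.05. Probes were named by accession (27234), symbol (3576) or synonym (565) in the RefSeq table, and 8054 kept the file's name. The value table contrast was described without a test. In the table a missing value counts as below every measured one. Overlap was scored over both dyes together, so a gene said to overlap can be apart within a dye. Deviations from the group means correlated between same-numbered early-life and control samples at r 0.138 to 0.568, over 0.1 for all 4 numbers. Peripubertal and control samples gave r -0.126 to 0.300, and peripubertal and early-life samples -0.278 to 0.066. Same-numbered samples share a dye, and early-life and control samples share a slide. No pairing is stated by the labels, and whether these correlations reflect one was not tested. The fit was tested on simulated data. Tables and figures used Python 3.11.15, numpy 2.4.6, pandas 2.3.3 and matplotlib 3.10.9. The genes named are the 7 members, the 2 closest genes of each, and from each list those called by limma and up to 4 with the largest absolute table difference; further genes, such as the tissue markers, Pou1f1, Tbx19, Nr5a1, Egr1, Cpe and Pam, were named after their values were seen. Some items are not reported here. Alternatives were other signals, normalizations, filters and blocks, and leaving out each sample.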

Additional observations from a re-analysis of the deposited data

Results flagged for a closer look

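Among 39 sets of 4 values of the members, 1 held a value standing apart from the rest by Dixon's criterion, and chance flags about 1 in 20 such sets. It was Gh in peripubertal replicate 3 of the scanner files, at 6.35 against 6.39 to 6.40 in the other peripubertal samples (its gap to the nearest is 0.854 of the range). Gh was not well above background in any of these channels, so the value is one at background.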

How the results depend on the processing

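The differences of Pomc and Lhb stayed on their side of the threshold under every alternative run, and all kept their direction as labelled except 3. Early life versus control turned to -0.34 for Lhb and 0.47 for Pomc in the deposited value table. Its control and early-life names are crossed against the scanner names, so for the matched channels the direction was the same. Lhb in peripubertal versus control was -0.020 without control replicate 2, within -0.020 to 0.097 over the samples left out. The counts of called genes were less stable. Peripubertal versus control gave 19 calls without a filter, 145 without the array block and 19 with outlier spots kept, against 42. Peripubertal versus early life gave 2073 without the array block, against 468. Early life versus control gave 18 with processed signals, 3 without a filter, 110 without the array block, 1 with outlier spots kept and 16 in the deposited table, against 7. The replicate block assumes a pairing by number that the labels do not state. With it the counts were 13, 631 and 0, the last with 3034 genes at an unadjusted p under 0.05 by limma. No call of Pomc or Lhb changed. Leaving out 1 sample, with the correlation kept, gave 4 (without control replicate 1) to 24 (without early-life replicate 2) calls for peripubertal versus control. For peripubertal versus early life it gave 7 (without early-life replicate 3) to 1754 (without early-life replicate 2). For early life versus control it gave 0 to 155 (without early-life replicate 2), where the 9 samples whose removal gave 0 calls left 1773 to 2699 genes at an unadjusted p under 0.05 by limma. Each of the 12 samples moved these counts by over 1.5 times, except control replicate 4 in peripubertal versus early life, at 357. The causes were not tested. The median table difference of the 7 genes was 10.1 after quantile normalization, against 8.73, and 8.50 to 8.97 when 1 column was left out; a difference taken within each dye, chosen after seeing the data, stayed within the spread. In the scanner files that median was -0.037 from signal minus background, against 0.05, and 0.019 to 0.080 when 1 sample was left out. Without a filter all 7 genes were tested and none was called. Signal at background leaves Gh, Prl, Cga, Fshb and Tshb without a measured level in the scanner files, and the table contrast has no scanner file behind its peripubertal columns.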
